A study of Rattus norvegicus with 12 samples.

Results

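The effect of phenylephrine (PE) was measured in libraries of cultured heart muscle cells that are labelled as given an siRNA against Slc25a26. The libraries were chosen by their labels alone: the 3 labelled siSlc25a26 PE were set against the 3 labelled siSlc25a26, which makes 6 of the 12 libraries of the series. The series sequenced total RNA from neonatal rat ventricular myocytes (NRVMs), heart muscle cells isolated from newborn Sprague-Dawley rats. Cells were kept in DMEM with insulin, transferrin and selenium, penicillin and streptomycin, and were transfected with siSlc25a26 or with the negative control siNeg. In the PE groups, PE was added 12 h after transfection and left for 36 h, and the other groups received no PE. The labels give no PE dose, and the 3 replicates of each group are described as independent biological samples. Below, "without PE" and "with PE" stand for the libraries labelled siSlc25a26 and siSlc25a26 PE. Counts summed to between 27708544 and 28709049 per library without PE and between 26792198 and 27774608 with PE. At this depth 3 counts, the smallest level taken as detected, equal 0.104 to 0.112 CPM, which is the count after scaling every library to the same size. This floor covers counting error only and was taken from the unscaled totals. The CPM values below also carry edgeR's TMM factors (0.923 to 1.053 in these 6 libraries), so the floor on their scale differs by these factors.

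PE is an agonist of alpha-adrenergic receptors, which couple through Gq proteins to phospholipase C, calcium release, protein kinase C and MAP kinases. In cultured cardiomyocytes this signal is a standard way to bring on hypertrophy, in which cells enlarge without dividing, make more protein and sarcomeres, and switch genes of the fetal heart back on. Slc25a26 encodes the carrier that brings S-adenosylmethionine (SAM), the methyl donor of the cell, into mitochondria.

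Slc25a26, the target of the siRNA, stood at 15.8, 14.8 and 14.7 CPM without PE and 102, 106 and 98.8 CPM with PE in the libraries labelled siSlc25a26. All libraries with PE were above all those without, a ratio of means of 6.77 (log2 fold change 2.77 ± 0.061 (SE), edgeR adjusted p = 1.49e-08). In the libraries labelled siNeg the values were 33.2, 31.6 and 29.3 CPM without PE and 113, 106 and 86.2 CPM with PE. Without PE the libraries labelled siSlc25a26 held less of the target than those labelled siNeg, with no overlap (two-sided exact permutation test over 3 and 3 libraries, p = 0.1, the smallest this design allows). With PE the ranges of both siRNAs overlapped and the means were 102 and 102 CPM (two-sided exact permutation test, p = 1.0). The level of the target therefore gives no sign of a knockdown in the libraries labelled siSlc25a26 PE. Other values went with the labels. Over all 12 libraries the first principal component of log2 CPM carried 44.4% of the variance and placed siSlc25a26 PE (46.7, 49.2 and 52.0) on the side of siSlc25a26 (29.4, 28.3 and 30.2), away from siNeg PE (-28.3, -24.1 and -26.7) and siNeg (-54.8, -52.8 and -49.1). B2m, one of the genes described below, was at 1456, 1611 and 1435 CPM in siSlc25a26 PE and 270.1, 273 and 242 CPM in siNeg PE. The directions below are drawn between libraries by their labels.

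PE moved a large part of the transcriptome in the libraries labelled siSlc25a26. Levels were scaled with edgeR's TMM factors, and 13776 genes entered edgeR's quasi-likelihood test, and p was adjusted over all of them by Benjamini-Hochberg. Calls below rest on a change of over 1.5-fold and an adjusted p under 0.05. Of the genes tested, 1389 (10.1%) were called higher and 1436 (10.4%) lower, and 565 of the higher and 606 of the lower calls exceeded 2-fold. The change exceeded 8-fold in 47 genes called higher and in 28 called lower. In 8397 genes (61.0%) the 3 libraries with PE lay wholly outside the range of the 3 without. The 113 called entries named below were also apart in this way. For the largest rises and falls the naming rule required it, so nothing is read from that count. The first principal component of log2 CPM carried 69.9% of the variance and separated the libraries with PE (31.7, 38.4 and 43.4) from those without (-38.5, -38.9 and -36.1). The second carried 9.91% and spread libraries within both groups, with siSlc25a26 PE replicates 1 and 3 at its ends (21.5 and -18.0). In bulk RNA, fewer cells of a type and less RNA per cell cannot be told apart.

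The split between higher and lower calls differed between counts and FPKM. Of the called genes, 49.2% were higher on TMM-scaled counts, 49.75% with DESeq2 size factors in place of TMM, 27.4% with limma on log2(FPKM + 1) (564 higher, 1497 lower) and 27.1% on log2(FPKM + 0.1) (824 higher, 2214 lower). FPKM is the authors' measure, scaled by gene length and library size, and these fits also changed the test and the pseudocount, whose parts were not separated. The median of all tested genes was -0.0036 on TMM-scaled counts and -0.125 and -0.17 on these FPKM scales, and changes are best read relative to that shift. The top 10 genes by counts held 6.12% to 6.37% of each library without PE and 9.79% to 10.0009% with PE, and the part of this in the shift was not tested. Of the genes named below, Hspb7, Phlda1, Cycs, Mrps22, Rps19, Atf3, Ssr1 and Tek lost their call on both FPKM scales, and Kcnt1, Pparg, Eif1a, Ifit1 and Per2 on log2(FPKM + 1). Atp2a2, Col1a1, Idh2 and Ccl2 were called lower on both FPKM scales, and Acta2, Nkx2-5, Rps2, Eef1a1, Calr, Psmb1 and Slc25a4, none of them called, changed sign on both.

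**Figure D1:**
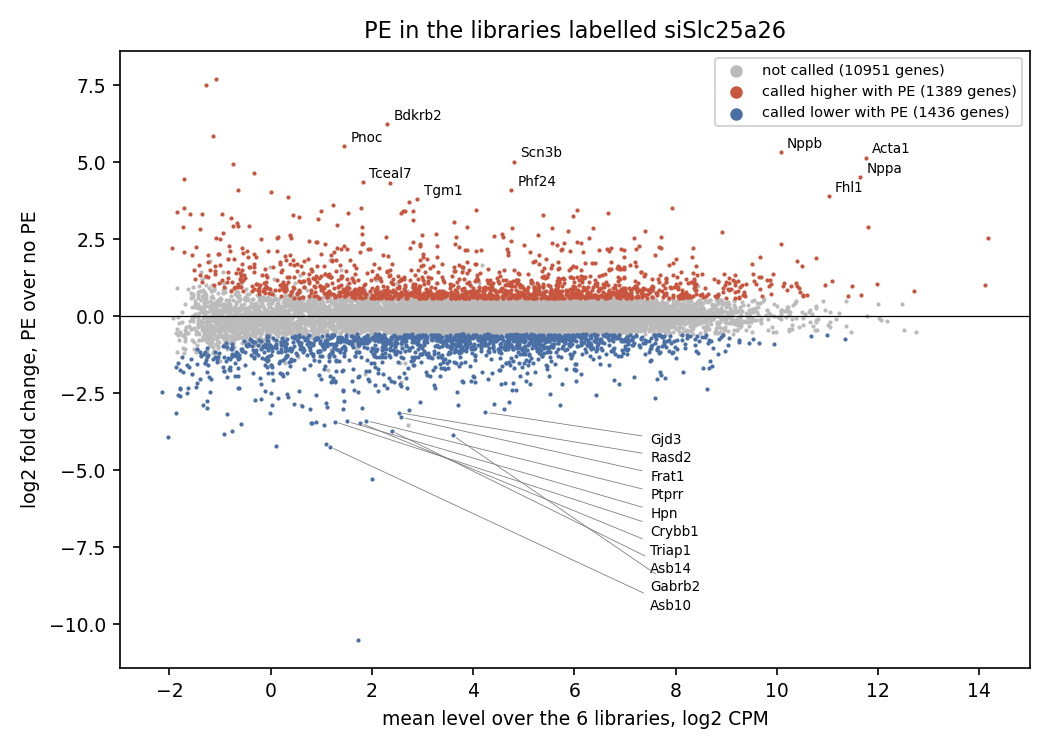
Each point is 1 of 13776 tested genes, with its mean level over the 6 libraries in log2 CPM on the x axis and its log2 fold change with PE on the y axis. The 1389 genes called higher and 1436 called lower reach across all levels. Labels mark the 10 largest rises and falls among genes whose groups did not overlap. These genes had at least 100 counts in each library of the higher group.

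Most of the tested fetal and stress-response genes that mark hypertrophy were called higher, with the largest rises in the natriuretic peptides and skeletal alpha-actin. Of 23 hypertrophy markers tested, 15 were called higher (65.2%) and 1 lower (4.35%), with a median log2 fold change of 1.16. Over all tested genes these were 10.1%, 10.4% and -0.0036. Every list below is to be read beside them, since a share near them is no result about the list. The lists were chosen with earlier results of these data known, so their shares describe the lists and are no test. Nppb, which encodes B-type natriuretic peptide, was at 63.5, 56.0 and 39.2 CPM without PE and 2052, 2182 and 2079.9 CPM with PE (log2 fold change 5.32 ± 0.16 (SE), edgeR adjusted p = 6.5e-08). Nppa, the gene of atrial natriuretic peptide, was at 331, 284 and 196 CPM without PE and 5953, 6330.5 and 6128 CPM with PE (log2 fold change 4.51 ± 0.17 (SE), edgeR adjusted p = 1.99e-07). Acta1, skeletal alpha-actin and part of the fetal programme, was at 256, 188 and 129 CPM without PE and 5806, 7073 and 7334 CPM with PE (log2 fold change 5.15 ± 0.24 (SE), edgeR adjusted p = 5.41e-07). In each of these genes the lowest library with PE held many times the level of the highest without. Myh7, the slow beta-myosin heavy chain, was at 11347, 11684 and 12726 CPM without PE and 25487, 22809 and 22806 CPM with PE (log2 fold change 1.00 ± 0.064 (SE), edgeR adjusted p = 3.27e-06). Myh6, its fast alpha counterpart, was at 4098, 4004 and 5276 CPM without PE and 4136, 4066 and 4005 CPM with PE, where the groups overlapped. Myh6 and Myh7 are alike in sequence, so reads that fit both may be shared by the counting.

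Further markers of the same list are Z-disc, sarcomere and cytoskeletal genes, of which all given in this paragraph but Myl7 were called higher. Fhl1, a LIM-domain protein of the sarcomere, was at 282, 275 and 240.0 CPM without PE and 3563, 3946 and 4219 CPM with PE (log2 fold change 3.89 ± 0.090 (SE), edgeR adjusted p = 1.67e-08). Xirp2, a xin-repeat protein of the intercalated disc, was at 46.5, 40.4 and 32.8 CPM without PE and 210.1, 438 and 702 CPM with PE (log2 fold change 3.51 ± 0.39 (SE), edgeR adjusted p = 8.67e-05), all PE libraries being higher but far apart. Ankrd1, the cardiac ankyrin repeat protein, was at 816, 839 and 891 CPM without PE and 5968, 6225 and 6528 CPM with PE (log2 fold change 2.89, edgeR adjusted p = 1.22e-08). Csrp3, muscle LIM protein, was at 380.1, 360.3 and 331 CPM without PE and 1790, 1858 and 1775 CPM with PE (log2 fold change 2.35, edgeR adjusted p = 2.57e-08). Xirp1 (log2 fold change 1.16, edgeR adjusted p = 2.32e-07), the other xin-repeat gene, and Tpm1 (log2 fold change 0.83, edgeR adjusted p = 3.33e-06), alpha-tropomyosin, were also higher in all libraries with PE. Myl4, the atrial light chain of the fetal ventricle, rose (log2 fold change 1.504, edgeR adjusted p = 1.28e-07), while Myl7, the atrial regulatory light chain, was at 18.1, 19.2 and 22.4 CPM without PE and 15.1, 11.7 and 12.1 CPM with PE (log2 fold change -0.61, edgeR adjusted p = 0.00263). Myl7 lost its call without siSlc25a26 PE replicate 2 (-0.54) or 3 (-0.57) or without siSlc25a26 replicate 3 (-0.52).

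Other markers included signalling and secreted genes. Rcan1, the calcineurin inhibitor that calcineurin itself induces, was at 108, 113 and 116 CPM without PE and 412, 403 and 384 CPM with PE (log2 fold change 1.84, edgeR adjusted p = 4.24e-08). Nap1l5, a nucleosome assembly protein family member, was at 1.4, 1.95 and 2.74 CPM without PE and 8.78, 8.18 and 6.76 CPM with PE (log2 fold change 1.97, edgeR adjusted p = 0.000104). Ctgf, a matricellular protein, rose (log2 fold change 1.38, edgeR adjusted p = 2.98e-06), as did the small heat shock gene Hspb7 (log2 fold change 0.65, edgeR adjusted p = 3.94e-05). Lif, a cytokine of the interleukin 6 family, was at 7.83, 7.87 and 7.16 CPM without PE and 10.9, 10.6 and 11.2 CPM with PE. Uchl1, a ubiquitin hydrolase, was at 39.9, 39.7 and 38.0 CPM without PE and 61.0, 50.1 and 50.1 CPM with PE. Both were higher in every PE library but under the fold threshold. The groups overlapped for Acta2, smooth muscle actin (854, 792 and 967 CPM without PE and 929, 836 and 906 CPM with PE). They also overlapped for Tnni1, slow skeletal troponin I (1246, 1379.9 and 1442 CPM without PE and 1434, 1320.2 and 1148 CPM with PE), and for the stress cytokine Gdf15 (23.4, 21.4 and 24.1 CPM without PE and 25.04, 22.5 and 18.8 CPM with PE). Fgf23 had 0 counts and Mstn at most 2 counts in any of the 6 libraries, and neither was tested.

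**Figure D2:**
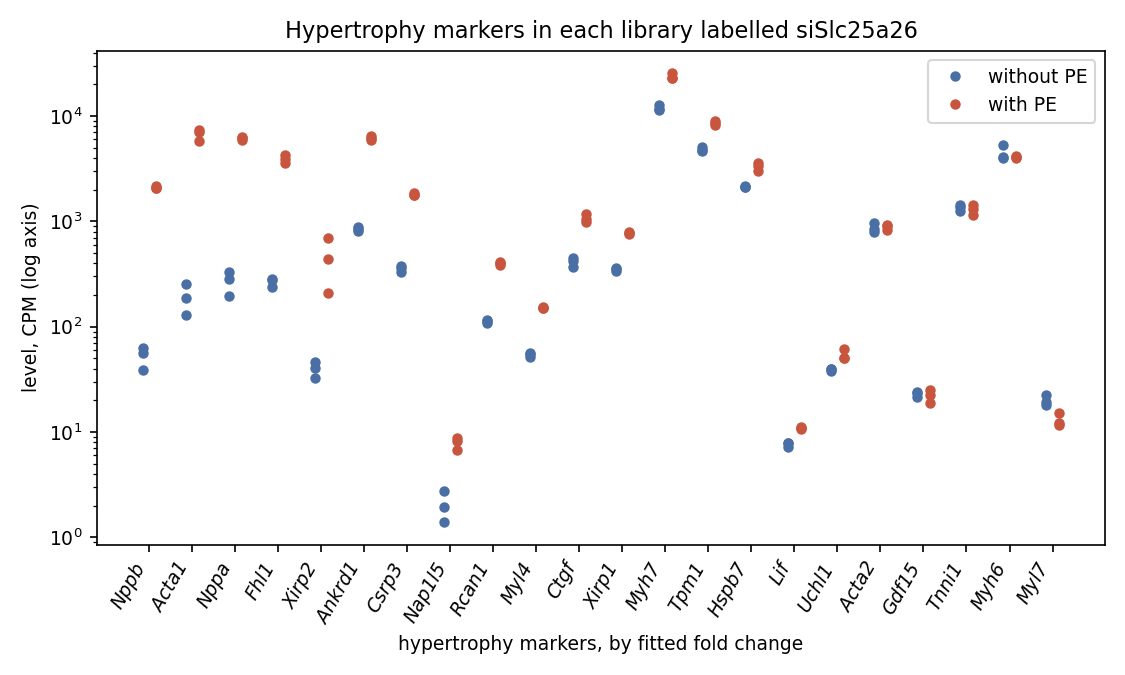
The level of 22 of the 23 tested hypertrophy markers in CPM on a log axis is shown for the 3 libraries without PE and the 3 with PE, in order of fitted fold change. Nppb, Acta1 and Nppa lie at the left with all PE libraries far above the others, and Myl7 at the right is the marker called lower.

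Promoter windows of 5 of these markers are shown because the genes rose together. They are the 250 bases before and 50 bases from the gene's annotated start, which need not be the start used in these cells, taken from RefSeq for the rat assembly GRCr8 and printed on the gene's strand. These 5 were picked after their values were seen. Capitals mark CATTCC (a letter run bound by TEAD factors), TGACTCA (AP-1), CACGTG (an E-box) and the CArG box (serum response factor), searched on both strands. Nppa lies at chr5:163711934-163712233 on the plus strand, Nppb at chr5:163699758-163700057 on the plus strand and Acta1 at chr19:68784145-68784444 on the minus strand. Fhl1 lies at chrX:139638246-139638545 on the plus strand and Xirp2 at chr3:72533936-72534235 on the plus strand.
Nppa: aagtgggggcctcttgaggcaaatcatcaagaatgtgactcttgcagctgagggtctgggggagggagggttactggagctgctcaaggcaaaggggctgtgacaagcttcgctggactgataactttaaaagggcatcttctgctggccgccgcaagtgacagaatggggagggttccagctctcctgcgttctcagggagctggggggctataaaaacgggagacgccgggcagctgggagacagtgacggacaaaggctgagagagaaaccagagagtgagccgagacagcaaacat
Nppb: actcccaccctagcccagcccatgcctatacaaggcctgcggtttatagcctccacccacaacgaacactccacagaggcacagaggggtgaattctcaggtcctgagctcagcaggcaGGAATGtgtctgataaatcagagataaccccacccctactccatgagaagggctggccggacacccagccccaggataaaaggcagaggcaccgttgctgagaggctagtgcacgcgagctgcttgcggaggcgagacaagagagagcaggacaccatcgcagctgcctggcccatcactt
Acta1: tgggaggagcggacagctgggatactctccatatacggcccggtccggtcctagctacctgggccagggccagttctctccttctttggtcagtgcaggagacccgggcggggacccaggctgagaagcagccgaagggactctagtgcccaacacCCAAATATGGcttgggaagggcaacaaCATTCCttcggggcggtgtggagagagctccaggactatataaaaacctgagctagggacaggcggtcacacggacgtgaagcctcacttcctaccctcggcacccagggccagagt
Fhl1: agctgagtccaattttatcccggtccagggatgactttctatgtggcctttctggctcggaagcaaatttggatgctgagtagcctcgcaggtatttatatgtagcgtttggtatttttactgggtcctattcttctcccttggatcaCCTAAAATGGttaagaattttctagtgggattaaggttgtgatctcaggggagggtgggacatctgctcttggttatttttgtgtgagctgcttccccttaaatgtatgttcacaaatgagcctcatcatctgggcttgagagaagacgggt
Xirp2: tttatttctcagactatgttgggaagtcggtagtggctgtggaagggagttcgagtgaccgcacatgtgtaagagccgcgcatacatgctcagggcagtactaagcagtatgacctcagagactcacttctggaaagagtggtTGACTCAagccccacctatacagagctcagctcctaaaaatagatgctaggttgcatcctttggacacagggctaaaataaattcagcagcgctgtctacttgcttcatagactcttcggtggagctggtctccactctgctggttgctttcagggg
In these windows Acta1 holds CATTCC and a CArG box, Nppb CATTCC, Fhl1 a CArG box and Xirp2 TGACTCA, and Nppa holds none of these letter runs. A promoter was matched for 10720 of the 13776 tested genes. The CArG box was in 2.31% of promoters of genes called higher, 1.29% of those called lower, 1.33% of all tested genes and 1.64% of all 27457 promoters. CATTCC was in 11.7%, 12.0%, 11.1% and 13.9% of these same groups, and TGACTCA in 3.85%, 3.86%, 3.28% and 4.53%. CACGTG was in 9.73%, 8.08%, 9.38% and 6.65%. These are letter matches and were not tested.

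Genes with at least 100 counts in each library with PE and no overlap between the groups were ranked, leaving out LOC and RGD entries. Among those called higher, the 10 largest fitted rises were those of Nppb, Nppa, Acta1, Fhl1 and 6 genes of unlike roles that were low without PE. Bdkrb2, the bradykinin B2 receptor, was at 0.0681, 0.198 and 0.104 CPM without PE and 7.96, 9.89 and 11.2 CPM with PE (log2 fold change 6.24 ± 0.29 (SE), edgeR adjusted p = 4.8e-07). Pnoc, which encodes the precursor of the neuropeptide nociceptin, was at 0.0681, 0.0992 and 0.174 CPM without PE and 6.16, 5.13 and 4.83 CPM with PE (log2 fold change 5.52 ± 0.28 (SE), edgeR adjusted p = 8.6e-07). Both had 2 to 6 counts in each library without PE, so the size of their rise is imprecise. Scn3b, a beta subunit of voltage-gated sodium channels, was at 1.77, 2.02 and 1.25 CPM without PE and 44.7, 53.6 and 64.9 CPM with PE (log2 fold change 5.02 ± 0.19 (SE), edgeR adjusted p = 1.96e-07). Tceal7 (0.341, 0.463 and 0.174 CPM without PE and 6.55, 6.67 and 7.07 CPM with PE), of a family related to a transcription elongation factor, rose by 4.36 ± 0.25 (SE) on the log2 scale (edgeR adjusted p = 1.52e-06). Phf24, a PHD finger gene, was at 3.68, 2.58 and 2.78 CPM without PE and 45.0, 51.9 and 55.5 CPM with PE (log2 fold change 4.09 ± 0.14 (SE), edgeR adjusted p = 1.12e-07). Tgm1, a transglutaminase that cross-links proteins, was at 0.715, 1.42 and 0.869 CPM without PE and 16.6, 14.2 and 10.9 CPM with PE (log2 fold change 3.79 ± 0.25 (SE), edgeR adjusted p = 3.55e-06).

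The 10 falls described next were the largest among genes called lower with at least 100 counts in each library without PE. Again the groups had to lie apart and LOC and RGD entries were left out, and some genes with fewer counts fell as far. Asb10, of the SOCS-box ankyrin family of ubiquitin ligase adaptors, was at 4.33, 4.83 and 3.68 CPM without PE and 0.273, 0.159 and 0.232 CPM with PE (log2 fold change -4.23 ± 0.25 (SE), edgeR adjusted p = 2.06e-06). Its relative Asb14 was at 10.6, 9.69 and 9.03 CPM without PE and 0.858, 1.03 and 0.309 CPM with PE (log2 fold change -3.72 ± 0.28 (SE), edgeR adjusted p = 7.89e-06). Gabrb2, a subunit of the GABA-A receptor, was at 22.6, 22.9 and 22.4 CPM without PE and 1.17, 1.63 and 1.82 CPM with PE (log2 fold change -3.86 ± 0.14 (SE), edgeR adjusted p = 1.3e-07). Gjd3, a connexin of gap junctions, was at 36.1, 34.1 and 31.8 CPM without PE and 4.92, 3.85 and 2.9 CPM with PE (log2 fold change -3.12 ± 0.15 (SE), edgeR adjusted p = 6.64e-07). In all 4 genes the libraries with PE were far below, though few counts with PE leave the size of the falls of Asb10 and Asb14 imprecise. Hpn, a membrane serine protease, was at 5.55, 5.79 and 4.31 CPM without PE and 0.585, 0.516 and 0.348 CPM with PE (log2 fold change -3.41, edgeR adjusted p = 4.38e-06). Ptprr, a tyrosine phosphatase, was at 6.54, 6.58 and 7.19 CPM without PE and 0.78, 0.318 and 0.811 CPM with PE (log2 fold change -3.39, edgeR adjusted p = 8.52e-06). Frat1, which binds the kinase GSK3 in Wnt signalling, was at 10.05, 11.8 and 10.7 CPM without PE and 1.56, 0.954 and 0.811 CPM with PE (log2 fold change -3.28, edgeR adjusted p = 2.78e-06). Rasd2, a small GTPase, was at 9.06, 9.46 and 12.5 CPM without PE and 1.6, 1.03 and 0.889 CPM with PE (log2 fold change -3.13, edgeR adjusted p = 6.37e-06). Crybb1, a beta-crystallin, was at 4.84, 4.37 and 3.996 CPM without PE and 0.429, 0.318 and 0.464 CPM with PE (log2 fold change -3.42, edgeR adjusted p = 2.63e-06). Triap1, which takes part in lipid transfer in mitochondria, was at 6.23, 6.68 and 5.87 CPM without PE and 0.117, 0.238 and 1.31 CPM with PE (log2 fold change -3.46, edgeR adjusted p = 0.000526). Its libraries labelled siNeg PE were uneven (0.398, 6.76 and 5.07 CPM), so its level is uncertain. Hpn, Ptprr and Crybb1 also had few counts with PE, which leaves the size of their falls imprecise.

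Most listed genes of the contractile apparatus and of the intercalated disc were called higher. Of 56 sarcomere genes, 34 were called higher (60.7%) and 3 lower (5.36%), with a median log2 fold change of 0.73. Actc1, cardiac alpha-actin and the gene with the highest FPKM when both groups are averaged, was at 5692, 5263 and 5449 CPM without PE and 32637, 31400 and 30948 CPM with PE (log2 fold change 2.54 ± 0.051 (SE), edgeR adjusted p = 1.22e-08). Its mean FPKM was 4065 without and 20983 with PE. Actc1, Acta1 and Acta2 have nearly the same coding sequence, so the split of reads between them is uncertain. Myom3, a protein of the M-band, fell (log2 fold change -1.97, edgeR adjusted p = 7.47e-06). The 4 genes next in that mean of both groups were Tpm1, Tnnt2, Cox6a2 and Nppa. Tnnt2, cardiac troponin T, was at 4458, 4920.5 and 5397 CPM without PE and 6867, 6370.2 and 6002 CPM with PE, higher in all PE libraries but under the fold threshold, and Cox6a2, the muscle form of a cytochrome oxidase subunit, was at 1802, 1979 and 1838 CPM without PE and 1790.2, 1649 and 1461 CPM with PE. Of 30 intercalated disc genes, 16 were called higher (53.3%) and 2 lower (6.67%), with a median log2 fold change of 0.63. Xirp2 had the largest rise among them, and the fall was largest for Gja5, connexin 40, at 172, 199 and 213 CPM without PE and 49.3, 42.6 and 34.5 CPM with PE (log2 fold change -2.20 ± 0.12 (SE), edgeR adjusted p = 1.55e-06). Gja1, connexin 43, the main ventricular gap junction protein, was at 1204, 1339.9 and 1329 CPM without PE and 749, 673 and 644 CPM with PE (log2 fold change -0.90, edgeR adjusted p = 8.74e-06).

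Cell type markers were read beside these groups. Of 17 cardiomyocyte markers, 8 were called higher (47.1%) and 1 lower (5.88%), with a median log2 fold change of 0.39, and their summed FPKM was 27692, 28581 and 28892 without PE and 52298, 50391 and 48548 with PE. Without Actc1, the most abundant, the sums were 23447, 24647 and 24877 against 30962, 29513 and 27813. Ckm, muscle creatine kinase, went the other way (log2 fold change -0.74, edgeR adjusted p = 3.14e-05). Of 15 fibroblast markers tested, 0 were called higher and 2 lower (13.3%), with a median log2 fold change of -0.25. Their summed FPKM was 5814, 5622 and 5844 without PE and 4637, 4568 and 4669.7 with PE, and without S100a4 it was 4162, 3820 and 3915 against 2408, 2488 and 2649. Dpt, dermatopontin, was at 21.9, 21.4 and 24.0 CPM without PE and 12.6, 11.1 and 11.3 CPM with PE (log2 fold change -0.93, edgeR adjusted p = 2.85e-05), while S100a4, the most abundant of them, was at 641, 694 and 756 CPM without PE and 989, 909 and 877 CPM with PE. All cardiomyocyte and fibroblast markers had more than 3 counts in some library. The part of the cell mix in the changes of the sarcomere, disc, collagen and matrix lists was not tested.

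Markers of other cells were low or mixed. Of 13 smooth muscle and pericyte markers, 5 were called higher (38.5%) and 3 lower (23.1%), with a median log2 fold change of -0.022, a sign that turned relative to all genes without siSlc25a26 PE replicate 3 (0.033) or siSlc25a26 replicate 1 (0.026). Summed FPKM was 2488, 2448 and 2613 without PE and 3156, 3035 and 3021 with PE, and without Des it was 1531, 1444 and 1659 against 1387, 1320 and 1372. Des, desmin, which cardiomyocytes also express, was at 1903, 1994 and 1920.3 CPM without PE and 4014, 3823 and 3647 CPM with PE (log2 fold change 0.99, edgeR adjusted p = 8.19e-07). Cnn1, calponin, was at 18.3, 16.7 and 19.5 CPM without PE and 180.4, 194 and 178 CPM with PE (log2 fold change 3.35 ± 0.071 (SE), edgeR adjusted p = 1.22e-08). Tagln, transgelin, was at 505, 478 and 551 CPM without PE and 315, 287 and 290.1 CPM with PE (log2 fold change -0.77, edgeR adjusted p = 1.7e-05). Endothelial markers (10 tested, 1 higher, 1 lower, median -0.24) summed to 75.2, 70.6 and 79.1 FPKM without PE and 82.7, 82.5 and 84.8 with PE. Most of that was Eng (169, 152 and 177 CPM without PE and 218, 214 and 217 CPM with PE), without which the sums were 12.06, 12.37 and 12.25 against 10.37, 10.54 and 11.06, lower in each PE library. Cldn5, Emcn and Robo4 had at most 3 counts in each library. The receptor gene Tek was at 11.7, 11.2 and 12.7 CPM without PE and 18.7, 18.9 and 20.9 CPM with PE (log2 fold change 0.72, edgeR adjusted p = 0.000146). Kdr, a VEGF receptor, was at 12.1, 13.2 and 13.2 CPM without PE and 5.5, 7.11 and 7.11 CPM with PE (log2 fold change -0.95, edgeR adjusted p = 0.000193). Macrophage and leukocyte markers (11 tested, 0 higher, 2 lower, median -0.14) summed to 54.5, 64.5 and 57.6 FPKM without PE and 32.6, 40.1 and 35.2 with PE, and without Lyz2 to 16.8, 18.5 and 16.6 against 11.2, 14.1 and 14.7, with Cd163 and Cd3e at or under 3 counts. Lyz2, the lysozyme gene and most abundant of them, was at 39.8, 48.5 and 43.9 CPM without PE and 25.9, 30.8 and 24.1 CPM with PE (log2 fold change -0.70, edgeR adjusted p = 0.000497). Aif1, a calcium-binding protein of macrophages, was at 1.5, 1.79 and 1.01 CPM without PE and 0.39, 0.795 and 0.58 CPM with PE (log2 fold change -1.27, edgeR adjusted p = 0.0105). The direction of the endothelial and leukocyte medians relative to all genes turned on log2(FPKM + 1) (0.046 and 0.030), and that of the leukocyte median also without siSlc25a26 replicate 3 (0.017). Erythroid and nerve markers were near the floor, with 3 tested, 0 called higher, 1 lower and a median of -0.27. Their sum was 1.99, 2.44 and 1.63 FPKM without PE and 1.31, 1.41 and 1.5 with PE, and Hbb-b1 and Sox10 had at most 3 counts. Slc4a1, the red cell anion exchanger, was called lower (3.54, 2.81 and 2.85 CPM without PE and 0.624, 0.318 and 0.193 CPM with PE, log2 fold change -2.995, edgeR adjusted p = 8.58e-05), and S100b, the most abundant by FPKM, was at 0.681, 1.26 and 0.625 CPM without PE and 0.702, 1.03 and 0.464 CPM with PE.

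Receptor, calcium and channel genes moved in both directions. Of 35 genes of adrenergic receptors and G-protein feedback, 6 were called higher (17.1%) and 8 lower (22.9%), with a median log2 fold change of -0.19. Of the 3 alpha-1 receptor genes in that list, the kind PE binds, 1 was called higher and 2 lower. Adra1d, one of the lower ones, was at 50.5, 52.0 and 58.5 CPM without PE and 15.8, 11.4 and 10.4 CPM with PE (log2 fold change -2.09 ± 0.14 (SE), edgeR adjusted p = 3.98e-06). Pde4b, a phosphodiesterase that breaks down cyclic AMP, was at 30.7, 32.1 and 30.0 CPM without PE and 95.7, 92.2 and 95.7 CPM with PE (log2 fold change 1.62, edgeR adjusted p = 1.23e-07). Gnas, the stimulatory G-protein subunit, was at 720.4, 779 and 751 CPM without PE and 748, 704 and 692 CPM with PE, with overlap. Of 38 calcium handling genes, 11 were called higher (28.9%) and 3 lower (7.89%), with a median log2 fold change of -0.070, a median whose sign relative to all genes turned in 1 case (0.0185 without siSlc25a26 replicate 3). The calcium-binding S100a1 was at 72.7, 77.1 and 94.4 CPM without PE and 47.4, 44.7 and 37.1 CPM with PE (log2 fold change -0.91, edgeR adjusted p = 0.000199). Atp2a2, the calcium pump SERCA2 of the sarcoplasmic reticulum, was at 6761, 6951 and 6631 CPM without PE and 5321, 4756 and 4638 CPM with PE, lower in each PE library but under the fold threshold on counts. Of 31 ion channel genes, 2 were called higher (6.45%) and 12 lower (38.7%), with a median log2 fold change of -0.37. Scn3b led the rises, and Scn4b, another sodium channel beta subunit, fell from 71.8, 86.9 and 75.3 CPM to 14.7, 14.3 and 11.3 CPM (log2 fold change -2.53 ± 0.11 (SE), edgeR adjusted p = 3.63e-07).

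Early response and MAP kinase feedback genes were more often called higher than lower, while calls among cardiac transcription factors went both ways. Of 29 early response transcription factors, 12 were called higher (41.4%) and 2 lower (6.9%), with a median log2 fold change of 0.49. Nr4a3, an orphan nuclear receptor, was at 0.885, 1.26 and 1.04 CPM without PE and 10.6, 11.1 and 10.8 CPM with PE (log2 fold change 3.35 ± 0.15 (SE), edgeR adjusted p = 3.86e-07), and Ier3 at 110.4, 109 and 120.0 CPM without PE and 259.6, 262 and 250.4 CPM with PE (log2 fold change 1.19, edgeR adjusted p = 4.27e-07). Klf2, a flow-responsive factor in vessels, was at 36.0, 32.7 and 36.7 CPM without PE and 21.5, 20.8 and 18.1 CPM with PE (log2 fold change -0.79, edgeR adjusted p = 5.82e-05). Of 21 MAP kinase feedback genes, 9 were called higher (42.9%) and 1 lower (4.76%), with a median log2 fold change of 0.39. Dusp8, a phosphatase of MAP kinases, was at 11.6, 10.6 and 10.5 CPM without PE and 66.7, 69.4 and 65.9 CPM with PE (log2 fold change 2.64 ± 0.068 (SE), edgeR adjusted p = 2.57e-08). Dusp5, a nuclear phosphatase of ERK, was at 104, 108 and 114 CPM without PE and 73.7, 65.6 and 56.6 CPM with PE (log2 fold change -0.72, edgeR adjusted p = 0.000153). Phlda1 was at 79.1, 78.0 and 91.9 CPM without PE and 153, 127 and 124 CPM with PE (log2 fold change 0.71, edgeR adjusted p = 0.000256). Of 16 calcineurin and NFAT genes, 2 were called higher (12.5%) and 1 lower (6.25%), with a median log2 fold change of 0.10. Rcan1 was the largest rise there, Nfatc2, an NFAT factor, fell (log2 fold change -1.03, edgeR adjusted p = 1.5e-05), and Myoz2, a Z-disc protein that binds calcineurin, rose (log2 fold change 1.37, edgeR adjusted p = 8.13e-07). Of 33 cardiac transcription factors, 6 were called higher (18.2%) and 7 lower (21.2%), with a median log2 fold change of -0.23. Myocd, the SRF coactivator myocardin, was at 43.8, 41.0 and 40.7 CPM without PE and 86.3, 101 and 96.6 CPM with PE (log2 fold change 1.19, edgeR adjusted p = 2.13e-06). The homeobox gene Irx3 was at 158, 163 and 173 CPM without PE and 75.4, 66.5 and 58.0 CPM with PE (log2 fold change -1.30, edgeR adjusted p = 4.34e-06). Nkx2-5, a core cardiac factor, was at 259, 249 and 291 CPM without PE and 309.5, 275 and 231 CPM with PE, with overlap.

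Secreted growth factors were called in both directions at above the shares over all tested genes, and most collagens and matrix remodelling genes were not called. Of 45 secreted growth factors, 8 were called higher (17.8%) and 11 lower (24.4%), with a median log2 fold change of -0.13. Areg, an EGF receptor ligand, was at 0.477, 1.06 and 0.521 CPM without PE and 2.85, 3.5 and 4.17 CPM with PE (log2 fold change 2.35, edgeR adjusted p = 0.000239). Adm, the vasodilator adrenomedullin, was at 53.7, 48.7 and 61.5 CPM without PE and 23.6, 23.4 and 24.1 CPM with PE (log2 fold change -1.20, edgeR adjusted p = 7.99e-06), and Fstl1 at 694, 641 and 715 CPM without PE and 593, 596 and 641 CPM with PE. Among 23 collagens, 3 were called higher (13.0%) and 4 lower (17.4%), with a median log2 fold change of -0.080. Col15a1, a basement membrane collagen, rose (log2 fold change 1.13, edgeR adjusted p = 7.52e-06) and Col8a2 fell (log2 fold change -0.96, edgeR adjusted p = 0.0021). Col1a1, the main fibrillar collagen, was at 8727, 7619.5 and 7863 CPM without PE and 5536, 5429 and 5911 CPM with PE, lower in each PE library but short of the fold threshold on counts. Of 44 matrix remodelling genes, 3 were called higher (6.82%) and 3 lower (6.82%), with a median log2 fold change of -0.15. Wisp2, of the same CCN family as Ctgf, was at 56.2, 40.5 and 48.2 CPM without PE and 11.6, 12.5 and 13.2 CPM with PE (log2 fold change -1.95 ± 0.12 (SE), edgeR adjusted p = 2.68e-06), and Sparc, a collagen-binding protein, at 4758, 4903 and 5004 CPM without PE and 4548, 4347 and 4233 CPM with PE.

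Most lipid synthesis genes were called higher, while genes of fatty acid and ketone use were more often called lower than higher. Of 38 genes of cholesterol and fatty acid synthesis, 23 were called higher (60.5%) and 0 lower, with a median log2 fold change of 0.74. Scd, stearoyl-CoA desaturase, was at 22.2, 24.3 and 22.5 CPM without PE and 116, 137 and 145 CPM with PE (log2 fold change 2.54 ± 0.091 (SE), edgeR adjusted p = 1.32e-07). Fdps, a synthase of the mevalonate pathway, was at 301, 321 and 332 CPM without PE and 764, 754 and 731 CPM with PE (log2 fold change 1.25 ± 0.052 (SE), edgeR adjusted p = 3.11e-07). Rat Scd has a close paralog, so its share of reads is uncertain. Of 42 genes of fatty acid oxidation and ketone metabolism, 5 were called higher (11.9%) and 12 lower (28.6%), with a median log2 fold change of -0.31. Bdh1, which interconverts the ketone bodies, was at 19.3, 21.8 and 23.8 CPM without PE and 70.7, 63.8 and 54.9 CPM with PE (log2 fold change 1.55 ± 0.11 (SE), edgeR adjusted p = 4.91e-06), and Fabp3, the heart fatty acid binding protein, at 485, 501 and 510.1 CPM without PE and 495, 463 and 410.3 CPM with PE, with overlap. Of 24 genes of the PGC-1, ERR and PPAR regulators, 2 were called higher (8.33%) and 4 lower (16.7%), with a median log2 fold change of -0.078. Pparg was low and higher with PE (0.477, 0.529 and 0.591 CPM without PE and 0.975, 1.15 and 1.16 CPM with PE, log2 fold change 1.05, edgeR adjusted p = 0.00683). Rxrg, a retinoid X receptor, was at 101, 92.4 and 104 CPM without PE and 33.4, 28.9 and 25.5 CPM with PE (log2 fold change -1.75, edgeR adjusted p = 1.14e-06), and Esrra at 113, 113 and 110.4 CPM without PE and 114, 107 and 94.1 CPM with PE.

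In central energy metabolism, calls went both ways among glycolysis and creatine genes and, on TMM-scaled counts, only upward among TCA cycle genes. Of 37 glycolysis genes, 7 were called higher (18.9%) and 7 lower (18.9%), with a median log2 fold change of 0.13. Slc16a3, a lactate transporter, was at 35.9, 35.7 and 38.8 CPM without PE and 171, 161 and 162 CPM with PE (log2 fold change 2.17 ± 0.057 (SE), edgeR adjusted p = 2.72e-08). Aldoc, the brain form of aldolase, was at 294, 339 and 332 CPM without PE and 95.5, 74.8 and 62.9 CPM with PE (log2 fold change -2.04 ± 0.13 (SE), edgeR adjusted p = 3.46e-06), and Gapdh at 3631, 3629 and 3483 CPM without PE and 5011, 4570.5 and 4340.5 CPM with PE. Among 30 genes of the TCA cycle and pyruvate dehydrogenase, 7 were called higher (23.3%) and 0 lower, with a median log2 fold change of 0.23. Pdha1, the catalytic subunit of pyruvate dehydrogenase, was at 392, 390.3 and 356 CPM without PE and 741, 806 and 946 CPM with PE (log2 fold change 1.14, edgeR adjusted p = 1.15e-05), and Idh2, mitochondrial isocitrate dehydrogenase, at 1449.7, 1434 and 1362 CPM without PE and 1077, 1018 and 908 CPM with PE, lower in each PE library but under the fold threshold on counts and called lower on both FPKM scales. Of 16 creatine kinase and phosphotransfer genes, 3 were called higher (18.8%) and 4 lower (25%), with a median log2 fold change of 0.15. The pair of enzymes that make creatine moved in opposite directions, Gatm from 6.16, 7.34 and 6.32 CPM to 27.3, 29.6 and 30.4 CPM (log2 fold change 2.15 ± 0.094 (SE), edgeR adjusted p = 3.88e-07) and Gamt from 40.2, 39.9 and 40.9 CPM to 10.03, 9.46 and 7.54 CPM (log2 fold change -2.15 ± 0.10 (SE), edgeR adjusted p = 4.73e-07). Slc25a4, the ADP/ATP carrier, was at 1162, 1214 and 1226 CPM without PE and 1339, 1185 and 1126 CPM with PE.

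Respiratory chain genes showed few calls. Of 36 complex I genes, 0 were called higher and 0 lower, with a median log2 fold change of 0.041, and the sign of that median relative to all genes turned on log2(FPKM + 1) (-0.013). Ndufb4, its most abundant gene by FPKM, was at 221, 243 and 248 CPM without PE and 247, 230 and 212 CPM with PE. Of 40 genes of complexes III, IV and V, 1 was called higher (2.5%) and 1 lower (2.5%), with a median log2 fold change of 0.14. Cycs, cytochrome c, rose (log2 fold change 0.73, edgeR adjusted p = 4.97e-06), and Cox8b, the muscle form of a cytochrome oxidase subunit, fell (log2 fold change -0.82, edgeR adjusted p = 7.63e-06). Of 75 mitochondrial ribosomal protein genes, 1 was called higher (1.33%) and 0 lower, with a median log2 fold change of 0.10. Mrps22 was the gene called higher (log2 fold change 0.64, edgeR adjusted p = 2.4e-05), and Mrpl17 was at 151, 158 and 149 CPM without PE and 189, 179 and 169.9 CPM with PE.

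Genes for making ribosomes were called higher at about the share over all tested genes (10.1%), and genes of the ribosome itself showed few calls. Of 82 ribosome biogenesis genes, 9 were called higher (10.98%) and 0 lower, with a median log2 fold change of 0.25, and 73 of the 82 had a fold change above 0. Rrp12, which takes part in ribosomal RNA processing, was at 22.6, 23.2 and 21.5 CPM without PE and 50.1, 46.3 and 49.7 CPM with PE (log2 fold change 1.13 ± 0.065 (SE), edgeR adjusted p = 1.73e-06), and Npm1, nucleophosmin, at 145, 153 and 140.0 CPM without PE and 164, 191 and 236 CPM with PE. Of 79 cytosolic ribosomal protein genes, 1 was called higher (1.27%) and 2 lower (2.53%), with a median log2 fold change of 0.028, with a sign relative to all genes that turned on log2(FPKM + 1) (-0.024) and without siSlc25a26 PE replicate 1 (-0.0026). Rps19 has 2 entries in the tables. The lower of them was at 12.0, 14.9 and 14.8 CPM without PE and 18.8, 24.8 and 20.5 CPM with PE (log2 fold change 0.63, edgeR adjusted p = 0.00259) and the other at 335, 336 and 352 CPM without PE and 308, 303 and 274 CPM with PE (log2 fold change -0.20, edgeR adjusted p = 0.0136). The entries went opposite ways and may share reads, and the call of the lower one was lost without siSlc25a26 PE replicate 2 (0.52) or siSlc25a26 replicate 1 (0.53). Rps14 was at 304, 336 and 166 CPM without PE and 149, 119 and 112 CPM with PE (log2 fold change -1.08, edgeR adjusted p = 0.00371), with siSlc25a26 replicate 3 low, and Rps2 at 1595, 1540.1 and 1450 CPM without PE and 1752, 1684 and 1539 CPM with PE. Ribosomal protein genes have many pseudogenes, so these counts are uncertain.

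Among genes of protein synthesis and quality control, cytosolic chaperones had the most calls. Of 51 genes of translation initiation and mTOR, 2 were called higher (3.92%) and 2 lower (3.92%), with a median log2 fold change of 0.16. Eif1a, an initiation factor, rose (log2 fold change 0.78, edgeR adjusted p = 0.000412), Sesn1, a sestrin that restrains mTOR, fell (log2 fold change -1.11 ± 0.093 (SE), edgeR adjusted p = 1.6e-05), and the elongation factor Eef1a1 was at 3478, 3542 and 3469.6 CPM without PE and 3490.2, 3485 and 3576 CPM with PE. Of 20 aminoacyl-tRNA synthetases, 0 were called higher and 0 lower, with a median log2 fold change of 0.075. Sars, the seryl enzyme, was at 243, 243 and 229 CPM without PE and 228, 227 and 204 CPM with PE. Of 33 ATF4 response genes, 3 were called higher (9.09%) and 6 lower (18.2%), with a median log2 fold change of -0.21. Atf3 rose (log2 fold change 0.75, edgeR adjusted p = 6.37e-05), Stc2, a stanniocalcin, fell (log2 fold change -1.12, edgeR adjusted p = 1.33e-05), and Atf4 itself was at 441, 447 and 469 CPM without PE and 352, 359 and 330.3 CPM with PE. Of 36 endoplasmic reticulum chaperones, 3 were called higher (8.33%) and 2 lower (5.56%), with a median log2 fold change of 0.15. Ssr1, of the translocon, rose (log2 fold change 0.76, edgeR adjusted p = 1.15e-05), Herpud1, which serves degradation at the reticulum, fell (log2 fold change -0.99, edgeR adjusted p = 8.52e-06), and Calr, calreticulin, was at 1386, 1432 and 1329 CPM without PE and 1531, 1484 and 1534 CPM with PE. Of 38 cytosolic chaperones, 14 were called higher (36.8%) and 0 lower, with a median log2 fold change of 0.46. Hspa1l, of the Hsp70 family, was at 0.749, 0.695 and 1.01 CPM without PE and 6.16, 6.52 and 5.68 CPM with PE (log2 fold change 2.91 ± 0.18 (SE), edgeR adjusted p = 2.58e-06), though near copies in that family leave its reads uncertain. Cryab, alpha-B crystallin, was at 1376, 1309 and 1262 CPM without PE and 2720.1, 2622 and 2533 CPM with PE (log2 fold change 1.01 ± 0.051 (SE), edgeR adjusted p = 8.19e-07). Of 31 proteasome genes, 3 were called higher (9.68%) and 0 lower, with a median log2 fold change of 0.22. Psmd14, its deubiquitinase, rose (log2 fold change 0.87, edgeR adjusted p = 1.09e-05), and Psmb1 was at 215, 214 and 224 CPM without PE and 242, 233 and 206 CPM with PE.

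Stress, degradation and methyl-donor genes were called at under the shares over all tested genes. Of 34 NRF2 antioxidant genes, 3 were called higher (8.82%) and 2 lower (5.88%), with a median log2 fold change of 0.0039, and relative to all genes its sign turned on both FPKM scales (-0.049 and -0.0060). Sod3, extracellular superoxide dismutase, was at 42.4, 41.1 and 44.6 CPM without PE and 104, 97.5 and 95.6 CPM with PE (log2 fold change 1.22, edgeR adjusted p = 6.07e-07). Hmox1, haem oxygenase, was at 75.9, 66.9 and 55.8 CPM without PE and 41.5, 34.0 and 33.4 CPM with PE (log2 fold change -0.86, edgeR adjusted p = 0.000366), and Fth1, ferritin heavy chain, at 1482, 1519 and 1469 CPM without PE and 1502, 1461 and 1300.4 CPM with PE. Of 47 autophagy and lysosome genes, 0 were called higher and 4 lower (8.51%), with a median log2 fold change of -0.18. In 37 of the 47 the fold change was below 0. Fbxo32, the muscle ubiquitin ligase atrogin, was at 154, 160.4 and 147 CPM without PE and 48.3, 49.9 and 54.6 CPM with PE (log2 fold change -1.58 ± 0.065 (SE), edgeR adjusted p = 2.72e-07), and Map1lc3a at 342, 356 and 386 CPM without PE and 376, 318 and 283 CPM with PE. Of 38 methionine, SAM and folate genes, 1 was called higher (2.63%) and 3 lower (7.89%), with a median log2 fold change of 0.029. Slc25a26 was the call upward and Gamt, which uses SAM, the largest fall, and Oaz1, ornithine decarboxylase antizyme, was at 675, 670.5 and 778 CPM without PE and 761, 705 and 628 CPM with PE.

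Calls among cell cycle genes and histone deacetylases were near or under the shares over all tested genes, while clock genes were more often called lower than higher. Of 68 cell cycle and DNA replication genes, 7 were called higher (10.3%) and 1 lower (1.47%), with a median log2 fold change of 0.16. The CDK inhibitor Cdkn2b rose (log2 fold change 1.53 ± 0.12 (SE), edgeR adjusted p = 1.15e-05), the CDK inhibitor Cdkn1c fell (log2 fold change -1.54 ± 0.14 (SE), edgeR adjusted p = 2.6e-05), and Ccnd3, cyclin D3, was at 283, 266 and 278 CPM without PE and 336, 309 and 286 CPM with PE. Of 20 circadian clock genes, 2 were called higher (10%) and 6 lower (30.0%), with a median log2 fold change of -0.092. Per2 rose (log2 fold change 0.86, edgeR adjusted p = 2.23e-05), and Bhlhe40 was at 77.1, 75.2 and 66.1 CPM without PE and 83.7, 96.5 and 97.7 CPM with PE. Of 18 histone deacetylases, 0 were called higher and 2 lower (11.1%), with a median log2 fold change of -0.14. Hdac11 fell (log2 fold change -1.66 ± 0.16 (SE), edgeR adjusted p = 3.3e-05), and Sirt2 was at 98.2, 107 and 99.3 CPM without PE and 81.8, 78.6 and 73.6 CPM with PE.

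The interferon response, antigen presentation and NF-kB and chemokine lists had the lowest medians. Of 83 interferon response genes, 2 were called higher (2.41%) and 42 lower (50.6%), with a median log2 fold change of -0.60, and 75 of the 83 had a fold change below 0. Irf7, the interferon regulatory factor and most abundant member, was at 2631, 2333 and 2435 CPM without PE and 1699.9, 1773 and 1382 CPM with PE (log2 fold change -0.60 ± 0.088 (SE), edgeR adjusted p = 0.000476), and its call was lost without siSlc25a26 PE replicate 3 (-0.50) or siSlc25a26 replicate 1 (-0.55). Ifnb1, interferon beta, was at 1.7, 1.75 and 1.91 CPM without PE and 0.156, 0.278 and 0.27 CPM with PE (log2 fold change -2.90 ± 0.28 (SE), edgeR adjusted p = 4.12e-05). With PE its counts were near the floor, so the size of its fall is imprecise. Ifit1, an antiviral effector, had 2 to 9 counts in each library without PE and was higher with PE (0.0681, 0.298 and 0.208 CPM without PE and 0.78, 1.19 and 0.85 CPM with PE, log2 fold change 2.27, edgeR adjusted p = 0.00224), against the run of its list. Of 29 antigen presentation genes, 0 were called higher and 14 lower (48.3%), with a median log2 fold change of -0.59. RT1-Ba, a class II gene of the rat MHC, whose members are alike enough to share reads, was at 0.681, 0.695 and 0.73 CPM without PE and 0.156, 0.0795 and 0.0386 CPM with PE, which is 1 to 4 counts (log2 fold change -2.87, edgeR adjusted p = 0.000642). B2m, the class I light chain, was at 1734, 1678 and 1760 CPM without PE and 1456, 1611 and 1435 CPM with PE, lower in each PE library but under the fold threshold. Of 33 NF-kB and chemokine genes, 4 were called higher (12.1%) and 12 lower (36.4%), with a median log2 fold change of -0.49. Lcn2, lipocalin, was at 1.23, 1.46 and 1.25 CPM without PE and 2.65, 4.09 and 4.06 CPM with PE (log2 fold change 1.46, edgeR adjusted p = 0.000525). The chemokine Ccl3 was at 0.647, 0.827 and 1.15 CPM without PE and 0.234, 0.278 and 0.27 CPM with PE (log2 fold change -1.71, edgeR adjusted p = 0.00303). Ccl2, the monocyte chemokine, was at 319, 319 and 342 CPM without PE and 243, 212 and 204 CPM with PE. On counts Ccl2 was under the fold threshold except without siSlc25a26 PE replicate 1 (-0.64), and it was called lower on both FPKM scales. The summed FPKM of leukocyte markers was also lower in the libraries with PE, and their part in these changes was not tested.

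**Figure D3:**
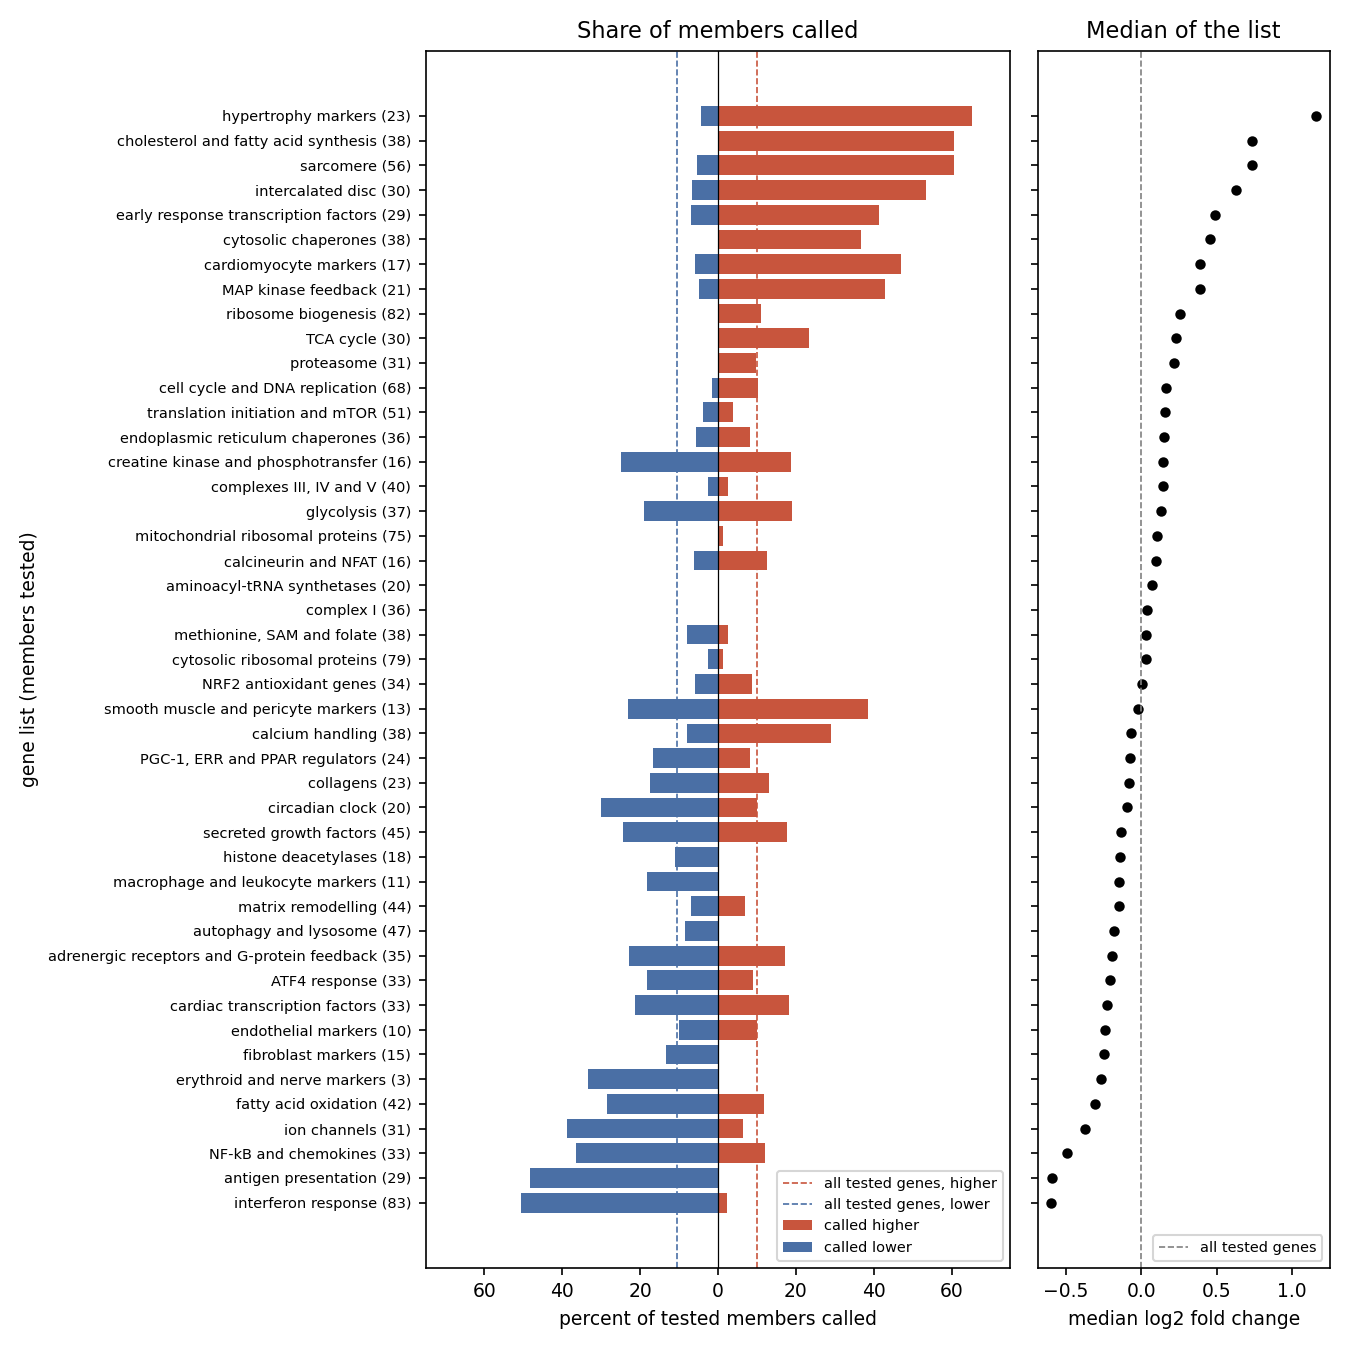
Left, the percent of tested members of each of 45 gene lists called higher (red, to the right) or lower (blue, to the left) with PE, with dashed lines at 10.1% and 10.4% for all tested genes; right, the median log2 fold change of each list. Hypertrophy markers stand at the top with a median of 1.16 and interferon response genes at the bottom with -0.60. The NRF2, complex I and cytosolic ribosomal medians change sign relative to all genes on log2(FPKM + 1), as do the endothelial and leukocyte medians.

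**Figure D4:**
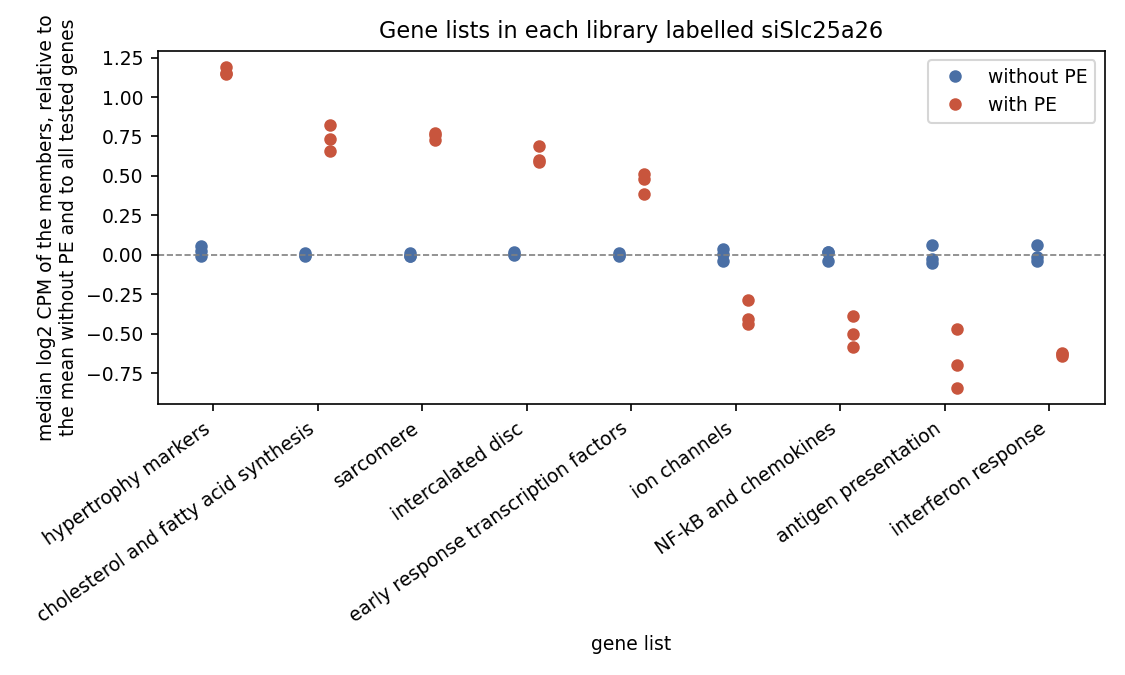
For the 5 lists with the highest and the 4 with the lowest medians, each point is 1 library: the median log2 CPM of the members relative to the mean of the libraries without PE and to all tested genes. In these 9 lists the groups are apart, and antigen presentation has the widest spread with PE (-0.47, -0.70 and -0.85).

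The PE effect was set beside that in the libraries labelled siNeg, which share no library with those above, to see where it differed between siRNAs. In siNeg, 1708 of 13719 genes (12.4%) were called higher and 1130 (8.24%) lower with PE. Of 13506 genes tested with both siRNAs, 820 were called higher in both, 60.4% of the higher calls in siSlc25a26 and 48.8% of those in siNeg, and 637 were called lower in both, 46.6% and 58.7% of the lower calls. In opposite directions, 3 were called higher in siSlc25a26 and lower in siNeg, and 11 the other way round. Across genes, which are not independent replicates, fold changes correlated with r = 0.726 and rho = 0.741. The difference between PE effects was tested over all 12 libraries as an interaction term on 14097 genes, of which 305 (2.16%) had a higher and 471 (3.34%) a lower PE effect in the libraries labelled siSlc25a26. On log2(FPKM + 1) these counts were 164 and 538, with a median of all genes of -0.11 against -0.045 on counts, and on log2(FPKM + 0.1) the median was -0.14. Without siNeg PE replicate 3 the lower count was 301, and with a replicate block it was 619.

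Among genes with at least 100 counts in every library of some group, leaving out LOC and RGD entries, those with the largest higher difference were of several kinds. Acta1 rose by 5.15 in siSlc25a26 and 3.18 in siNeg on the log2 scale (difference 1.95 ± 0.36 SE, edgeR adjusted p = 0.00488). Ankrd23, a titin-binding ankyrin repeat protein, was at 0.681, 0.529 and 0.486 CPM without PE and 4.06, 4.69 and 4.52 CPM with PE in siSlc25a26 (difference 1.99, edgeR adjusted p = 0.00316). Azin2, an activator of polyamine synthesis, was at 2.86, 2.65 and 2.4 CPM without PE and 20.9, 23.6 and 21.4 CPM with PE (difference 1.89, edgeR adjusted p = 0.0019). Rai2 was at 4.77, 4.86 and 4.2 CPM without PE and 20.4, 22.2 and 22.7 CPM with PE, beside 8.01, 7.21 and 7.53 and 9.23, 8.51 and 6.63 CPM in siNeg (difference 2.14, edgeR adjusted p = 6.75e-05). Bean1 was at 1.98, 2.18 and 2.57 CPM without PE and 12.2, 11.04 and 12.0 CPM with PE, beside 5.76, 4.65 and 4.28 and 5.89, 7.5 and 4.55 CPM in siNeg (difference 2.10, edgeR adjusted p = 0.000427). Kcnt1, a potassium channel, fell in siSlc25a26 (7.49, 7.18 and 7.19 CPM without PE and 3.55, 4.01 and 4.33 CPM with PE). The siNeg libraries held 0.471, 0.191 and 0.406 CPM without PE and 0 to 2 counts with PE, and Kcnt1 was not tested there. It passed the filter through the siSlc25a26 libraries (difference 2.16 ± 0.62 SE, edgeR adjusted p = 0.0429), so its call, the size of its difference and its place among the largest are uncertain. Acta1, Ankrd23 and Azin2 were called higher with PE with both siRNAs.

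The largest lower differences under the same limit were in genes of unlike roles. Triap1 has the largest of these (-6.66 ± 1.14 SE, edgeR adjusted p = 0.00308), called lower in siSlc25a26 and higher in siNeg (3.17), with the uneven values given above. Faap100, of the Fanconi anaemia complex, was at 4.05, 5.49 and 2.64 CPM without PE and 0.117, 0.238 and 0.309 CPM with PE (log2 fold change -4.16 ± 0.39 (SE), edgeR adjusted p = 3.4e-05), beside 13.9, 14.3 and 12.4 and 8.95, 5.91 and 7.02 CPM in siNeg (difference -3.28). Reg3b, a secreted lectin, was at 73.9, 131 and 71.8 CPM without PE and 14.0, 13.3 and 9.82 CPM with PE (log2 fold change -2.89, edgeR adjusted p = 1.81e-05), beside 57.9, 40.2 and 33.9 and 28.6, 34.4 and 32.2 CPM in siNeg (difference -2.42). Misp, of the mitotic spindle, was at 4.09, 3.44 and 4.2 CPM without PE and 0.702, 0.834 and 1.12 CPM with PE (log2 fold change -2.12, edgeR adjusted p = 4.9e-05). It was at 1 to 6 counts in each siNeg library, where it was not tested (difference -2.74), which leaves its call and the size uncertain. MGC108823 was at 143, 145 and 125 CPM without PE and 51.8, 59.5 and 65.3 CPM with PE (log2 fold change -1.21, edgeR adjusted p = 9.99e-06), beside 0.942, 0.763 and 0.627 and 2.23, 2.18 and 0.599 CPM in siNeg (difference -2.32). It met the limit on counts only through the siSlc25a26 libraries, and its siNeg PE libraries were uneven. The size of its difference and its place among the largest are therefore uncertain. Pnoc rose with both siRNAs from at most 5 counts, to 6.16, 5.13 and 4.83 CPM in siSlc25a26 and 34.5, 31.1 and 25.2 CPM in siNeg (difference -2.37). The lists with at least 5 differences in 1 direction are given here, beside 2.16% higher and 3.34% lower over all genes tested for the difference. Higher and lower differences numbered 11 and 0 of 56 sarcomere genes, 5 and 0 of 23 hypertrophy markers, 8 and 0 of 46 matrix remodelling genes, 7 and 2 of 46 secreted growth factors and 6 and 1 of 23 collagens. They numbered 0 and 18 of 83 interferon response genes, 0 and 5 of 29 antigen presentation genes and 0 and 8 of 68 cell cycle and DNA replication genes. Of these, 7 interferon response and 3 antigen presentation genes were not tested in siNeg, and none of those 10 had a called difference. Cell type markers had higher and lower differences in 4 and 0 of 13 smooth muscle and pericyte, 3 and 0 of 11 macrophage and leukocyte, 1 and 0 of 16 fibroblast, 1 and 0 of 10 endothelial, 1 and 0 of 17 cardiomyocyte and 0 and 0 of 3 erythroid and nerve markers, and their part in the other differences was not tested. With PE in siNeg, higher and lower calls numbered 0 and 11 of 23 collagens, 2 and 16 of 45 matrix remodelling genes and 8 and 14 of 45 secreted growth factors. There they also numbered 25 and 3 of 56 sarcomere genes, 13 and 2 of 23 hypertrophy markers and 25 and 1 of 68 cell cycle and DNA replication genes. For immune lists in siNeg they numbered 9 and 13 of 76 interferon response and 1 and 3 of 26 antigen presentation genes. For cell type markers in siNeg they numbered 0 and 9 of 16 fibroblast, 2 and 6 of 13 smooth muscle and pericyte and 0 and 7 of 10 macrophage and leukocyte markers. Over all genes tested in siNeg 12.4% were called higher and 8.24% lower. Some genes are in more than 1 list.

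**Figure D5:**
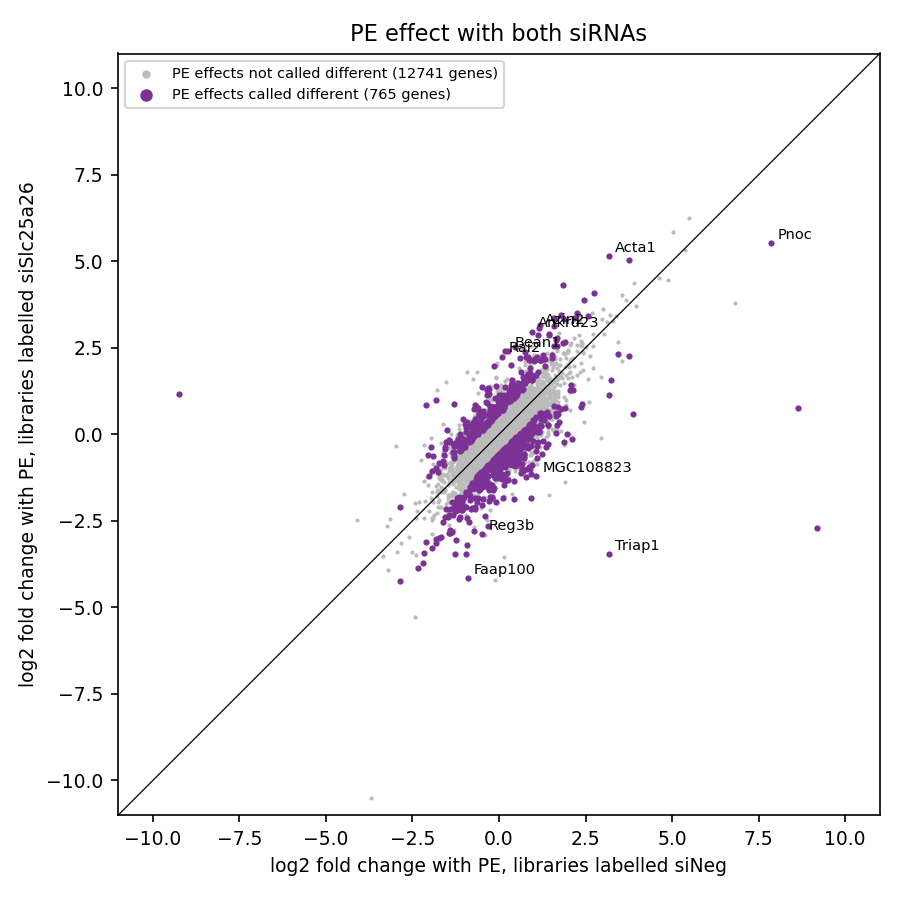
Each point is 1 of 13506 genes tested with both siRNAs, with the log2 fold change with PE in the libraries labelled siNeg on the x axis and in those labelled siSlc25a26 on the y axis, and the line marks equal change. The 765 genes whose PE effects were called different are drawn in purple, Acta1 lying above the line and Triap1 far below it.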

How the data were processed

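Total RNA of 12 libraries was measured, 3 in each of 4 groups. The deposited tables hold, per the file headers, an estimated count and an FPKM value for each gene and library, which the authors made before deposit. Between 20.8% and 21.9% of the estimated counts in a library were not whole, and all were rounded. The submitters' processing notes name HISAT, Bowtie2 and the build Rnor_6.0, with no role or version. The tables hold 18469 genes, of which 16962 (91.84%) matched a gene of the RefSeq table of GRCr8, used for names and promoters only.

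Counts were filtered with filterByExpr and scaled with TMM before edgeR's quasi-likelihood test, and p was adjusted by Benjamini-Hochberg over all genes tested. Only the 6 libraries compared entered each fit of the PE effect, and the difference between PE effects used all 12. Calls needed a change of over 1.5-fold at an adjusted p under 0.05. R 4.3.3, edgeR 4.0.16, limma 3.58.1 and DESeq2 1.42.0 were used, and the scripts were tested on simulated data.

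The members and the 45 gene lists were chosen with earlier results of these data known. Named genes followed a rule: Slc25a26, Nap1l5 and the hypertrophy markers; the 10 called genes with the largest rise and the 10 with the largest fall with at least 100 counts in each library of the higher group; of each list, the called members with the largest change and the most abundant members; the 6 genes with the largest higher and the 6 with the largest lower difference between PE effects with at least 100 counts in every library of some group; and the 5 most abundant genes. The largest rises and falls were taken only from genes whose 2 groups did not overlap in CPM. In full the rule takes 352 genes. After values were seen, the list part was shortened to the first called member in each direction and the most abundant member, and some genes are not reported here, which leaves 154 genes. Alternatives were other tools, scalings, filters, FPKM with 2 pseudocounts, a replicate block, calls by adjusted p alone, and fits that each lacked 1 library.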

Additional observations from a re-analysis of the deposited data

Results flagged for a closer look

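The PE effect in the libraries labelled siSlc25a26 differed from that in the libraries labelled siNeg, by the test of the difference itself (edgeR, all 12 libraries, adjusted p under 0.05 and a fold above 1.5), for 44 of the genes named. Of these, 12 were named for this difference, so nothing is read from the count. Over all 14097 genes tested, 2.16% had a higher and 3.34% a lower PE effect. The values are the log2 fold change with PE in siSlc25a26 less that in siNeg.

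A lower PE effect was called for Triap1 (-6.66), Faap100 (-3.28), Misp (-2.74), Reg3b (-2.42), Pnoc (-2.37), MGC108823 (-2.32), Scn4b (-1.69) and Aldoc (-1.58). Lower values were also called for Gabrb2 (-1.56), Asb14 (-1.55), Asb10 (-1.41), Frat1 (-1.36), Rasd2 (-1.32), Crybb1 (-1.27), Fbxo32 (-1.06) and Gjd3 (-1.04). The smaller lower differences were those of Gja5 (-1.03), Cdkn1c (-0.90), Adra1d (-0.82), Gamt (-0.77), Dusp5 (-0.75) and Irx3 (-0.65). A higher PE effect was called for Kcnt1 (2.16), Rai2 (2.14), Bean1 (2.10), Ankrd23 (1.99), Acta1 (1.95), Azin2 (1.89), Cnn1 (1.75) and Hspa1l (1.44). Higher values were also called for Ctgf (1.43), Fhl1 (1.40), Phf24 (1.32), Scn3b (1.25), Nr4a3 (1.17), Slc25a26 (1.06), Col15a1 (1.04) and Rrp12 (0.95). The smaller higher differences were those of Gatm (0.93), Actc1 (0.92), Acta2 (0.88), Scd (0.85), Rps19 (0.81) and Dusp8 (0.75). Kcnt1 had 0 to 2 counts in the siNeg PE libraries, Misp 1 to 6 in each siNeg library with or without PE, Pnoc at most 5 in each library without PE, and Asb10 and Faap100 at most 8 in each siSlc25a26 PE library, so the sizes of these differences are uncertain, as is that of Triap1, whose siNeg PE libraries were uneven. Kcnt1 and Misp were not tested in siNeg and passed the filter through the siSlc25a26 libraries, so nothing is read from their calls.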

How the results depend on the processing

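Counts of calls with PE in siSlc25a26 and of differences stayed within 1.5 times under DESeq2, limma-voom, DESeq2 size factors and both filters on low counts, as did calls with PE in siSlc25a26 in 1 fit of all 12 libraries. Calls with PE in siNeg were run only with DESeq2, where they stayed within 1.5 times, on log2(FPKM + 1) and with a replicate block. With limma on log2(FPKM + 1), the number of genes called higher with PE in siSlc25a26 was 564, that of genes called with PE in siNeg 1590, and that of genes with a higher difference 164. On log2(FPKM + 0.1), 824 were higher, 2214 lower and 768 had a lower difference. Without a fold threshold, which widens the calls by construction, 3634 were higher, the genes called lower with PE in siSlc25a26 were 3585, and the difference was higher for 773 and lower for 808. Leaving out 1 library gave 1176 to 1610 higher, 1346 to 1529 lower, and differences of 220 to 326 higher and 301 to 646 lower, with fewer libraries in each fit. Of the 45 gene lists, 24 had a median above that of all genes, and 23 to 26 without 1 library. Low counts limit Bdkrb2, Pnoc, Ifit1, Ifnb1, RT1-Ba, Mstn, Kcnt1, Misp, Asb10, Asb14, Hpn, Ptprr, Crybb1, Triap1 and Faap100, among others. Where another value differs below, the cause was not tested.

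With a replicate block, 1326 genes were higher and 1384 lower with PE in siSlc25a26, 1803 higher and 1166 lower in siNeg, and the difference was higher for 326 and lower for 619. Deviations from the group mean in libraries with the same number correlated with r from -0.073 to -0.0054 (mean -0.039) between siSlc25a26 PE and siSlc25a26. They did so with r from 0.0094 to 0.22 (mean 0.12) between siNeg PE and siNeg and from 0.025 to 0.21 (mean 0.13) between siSlc25a26 PE and siNeg PE. The means for the other 3 pairs of groups were 0.121 (siNeg and siSlc25a26 PE), 0.0225 (siNeg PE and siSlc25a26) and 0.0002 (siNeg and siSlc25a26). The labels do not say that equal numbers are pairs, and what the numbers share was not tested.

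List medians below are relative to that of all tested genes, and a median counts as moved when it changed by more than the spread between replicates. On log2(FPKM + 1) they moved to 1.10 for hypertrophy markers, 0.69 for sarcomere, -0.0089 for calcium handling, 0.31 for early response transcription factors, 0.35 for MAP kinase feedback, -0.14 for cardiac transcription factors, 0.57 for intercalated disc, -0.25 for ion channels, 0.076 for glycolysis, 0.18 for TCA cycle, 0.092 for complexes III, IV and V, -0.024 for cytosolic ribosomal proteins, 0.22 for ribosome biogenesis, 0.11 for translation initiation and mTOR, 0.025 for aminoacyl-tRNA synthetases, -0.25 for ATF4 response, 0.11 for endoplasmic reticulum chaperones, 0.40 for cytosolic chaperones, -0.049 for NRF2 antioxidant genes, 0.64 for cholesterol and fatty acid synthesis, -0.63 for interferon response, -0.37 for NF-kB and chemokines, 0.17 for proteasome, -0.056 for circadian clock, 0.059 for creatine kinase and phosphotransfer, 0.34 for cardiomyocyte markers, -0.32 for fibroblast markers, 0.046 for endothelial markers and -0.0097 for erythroid and nerve markers. On log2(FPKM + 0.1) they moved to 0.41 for early response transcription factors, -0.14 for cardiac transcription factors, -0.29 for ion channels, 0.28 for ribosome biogenesis, -0.41 for NF-kB and chemokines, -0.091 for histone deacetylases, 0.10 for creatine kinase and phosphotransfer and -0.13 for endothelial markers. With no filter they moved to 1.10 for hypertrophy markers, -0.16 for cardiac transcription factors and -0.19 for ATF4 response, and with 10 counts in every library to -0.18 for ATF4 response, -0.11 for circadian clock and -0.023 for endothelial markers. Within that spread, but by over 1.5 times, medians changed as follows. With no filter they were -0.083 for secreted growth factors, 0.049 for cytosolic ribosomal proteins, 0.014 for NRF2 antioxidant genes and -0.0052 for smooth muscle and pericyte markers. On log2(FPKM + 1) they were -0.13 for collagens, -0.013 for complex I, 0.054 for mitochondrial ribosomal proteins, 0.0040 for methionine, SAM and folate, -0.0059 for smooth muscle and pericyte markers and 0.030 for macrophage and leukocyte markers. On log2(FPKM + 0.1) they were 0.065 for mitochondrial ribosomal proteins, -0.0060 for NRF2 antioxidant genes, -0.0020 for smooth muscle and pericyte markers and -0.080 for macrophage and leukocyte markers. With 10 counts in every library they were 0.00080 for NRF2 antioxidant genes. With limma-voom they were -0.011 for smooth muscle and pericyte markers and -0.22 for macrophage and leukocyte markers.

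Leaving out 1 library in turn gave these ranges of list medians: -0.25 to -0.17 for ATF4 response, 0.34 to 0.52 for MAP kinase feedback, 0.00070 to 0.060 for NRF2 antioxidant genes, -0.15 to -0.063 for PGC-1, ERR and PPAR regulators, -0.26 to -0.15 for adrenergic receptors and G-protein feedback, 0.057 to 0.12 for aminoacyl-tRNA synthetases, -0.80 to -0.54 for antigen presentation, 0.074 to 0.16 for calcineurin and NFAT, -0.043 to 0.018 for calcium handling, -0.23 to -0.17 for cardiac transcription factors, 0.37 to 0.47 for cardiomyocyte markers, -0.14 to -0.064 for circadian clock, 0.13 to 0.17 for creatine kinase and phosphotransfer, 0.42 to 0.51 for cytosolic chaperones, 0.39 to 0.52 for early response transcription factors, -0.31 to -0.11 for endothelial markers, -0.54 to -0.13 for erythroid and nerve markers, -0.33 to -0.21 for fatty acid oxidation, -0.41 to -0.21 for fibroblast markers, 0.067 to 0.16 for glycolysis, -0.17 to -0.12 for histone deacetylases, -0.70 to -0.60 for interferon response, -0.32 to 0.017 for macrophage and leukocyte markers, 0.25 to 0.28 for ribosome biogenesis, 0.73 to 0.76 for sarcomere, -0.14 to 0.033 for smooth muscle and pericyte markers and 0.13 to 0.17 for translation initiation and mTOR. Other medians that changed by over 1.5 times, all within the spread between replicates, were -0.13 to -0.068 for secreted growth factors (-0.13 with all libraries), -0.081 to -0.048 for collagens (-0.076 with all libraries), 0.0047 to 0.092 for complex I (0.044 with all libraries), 0.052 to 0.16 for mitochondrial ribosomal proteins (0.11 with all libraries), -0.0026 to 0.052 for cytosolic ribosomal proteins (0.032 with all libraries) and 0.0010 to 0.058 for methionine, SAM and folate (0.033 with all libraries).

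Single genes that changed sign were all uncalled. On log2(FPKM + 1) they were Acta2 (-0.13), Nkx2-5 (-0.14), Rps2 (-0.050), Eef1a1 (-0.16), Calr (-0.031), Psmb1 (-0.12) and Slc25a4 (-0.15), and on log2(FPKM + 0.1) Acta2 (-0.13), Nkx2-5 (-0.14), Rps2 (-0.050), Eef1a1 (-0.16), Calr (-0.031), Psmb1 (-0.12) and Slc25a4 (-0.15). Without 1 library the log2 fold change spanned -0.025 to 0.12 for Acta2, -0.14 to 0.057 for Gdf15, -0.20 to 0.016 for Myh6, -0.094 to 0.0098 for Ndufb4, -0.061 to 0.14 for Nkx2-5, -0.073 to 0.062 for Oaz1, -0.54 to 0.17 for S100b, -0.042 to 0.078 for Slc25a4 and -0.12 to 0.028 for Tnni1.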
